A study of Mus musculus with 3 samples.

Results

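The genes of the proteasome were examined across cell types and irradiation conditions in the mouse lung. All genes of the expression tables whose symbol begins with Psma, Psmb, Psmc, Psmd or Psme were taken, leaving out the immunoproteasome genes Psmb8, Psmb9 and Psmb10 and any symbol of a pseudogene. The rule uses names only, and it found 42 of the 22954 genes measured. Single-cell RNA profiles came from the lungs of 3 female wild-type (WT) C57BL/6J mice, 1 library of 1 mouse per condition, 5 months after 13 Gy to both sides of the thorax. The CONV mouse was irradiated at a conventional dose rate and the FLASH mouse at an ultra-high dose rate. The CONV AsiDNA mouse was irradiated as in CONV and also received AsiDNA, an inhibitor of DNA repair made of a short stretch of DNA, at 100 mg/kg on the days before and 200 mg/kg on the day of irradiation. All mice were irradiated, and libraries of unirradiated mice were not analysed here. A single mouse stands for each condition, so no difference between conditions can be tested, and values stand side by side.

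The proteasome is the protease that degrades ubiquitin-tagged proteins in the cytosol and nucleus. Its 20S core is a barrel of alpha rings, which gate entry, around beta rings, of which the Psmb5, Psmb6 and Psmb7 products carry the chymotrypsin-like, caspase-like and trypsin-like activities. The 19S particle caps the barrel, with Psmc ATPases that unfold substrates and Psmd subunits that bind and remove ubiquitin. Psme1 and Psme2 encode the PA28 activator, which is induced by interferon gamma and favours the making of peptides for antigen presentation. Psme3 and Psme4 encode the nuclear activators PA28 gamma and PA200.

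By these roles the 42 members fall into 7 alpha and 7 beta genes of the 20S core, 6 ATPase and 11 non-ATPase genes of the 19S particle, 4 activators, and 3 chaperones of 19S assembly (Psmd5, Psmd9 and Psmd10). Psma8 of testis and Psmb11 of thymus are tissue-restricted. Psmc3ip, which encodes a cofactor of meiotic recombination, is no subunit, and Psme2b is a near copy of Psme2. Reads of Psme2 and Psme2b could be split between the copies, and 4 members overlap genes of the same strand that are also in the tables. These are Psma2 (AW209491), Psmd1 (Gm21972), Psmd12 (Gm11722, 1192 bases) and Psme2b (Gm12185, 837 bases, and 9930111J21Rik1, 41 bases), so the levels of these members are uncertain. The members lie on 16 chromosomes of GRCm38. Psme1 (chr14:55578123-55581529) and Psme2 (chr14:55587441-55591113, on the opposite strand) are neighbours, with 5911 bases between them, and Psmb5 lies at chr14:54614119-54618022.

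The proximal promoters of 4 members are shown because their genes carry the results below. Psmb5 and Psmb6 encode catalytic subunits that stood high in ciliated cells. Of the 35 members tested in B cells, Psmb5 and Psmd2 were those at least 2-fold lower in CONV, against 1.93% of all 4460 genes. Both reached the minimum level only through the other libraries, so they are given as a description. With the minimum set on CONV, 0 of 32 members were lower. The count of lower members was 4 with no minimum level and 0 with a minimum of 50, without a share of all genes beside these. Psmc1 was among the members with the greatest difference in dividing T cells. Each sequence is the 150 bases before the RefSeq start (GRCm38.p6), written 5′ to 3′ in the direction of the gene. Capitals mark TGACNNNGC, the core of the antioxidant response element through which Nfe2l1 and Nfe2l2 act, in Psmb5 and Psmb6, and CCGGAAG, an ETS core read on the opposite strand, in Psmd2 and Psmc1. By GENCODE, Psmc1 starts earlier, at chr12:100110154, so its marked site (100110174-100110180) lies inside the annotated gene. The last bases shown for Psmb5 also lie inside its annotated gene, but its marked site (54618034-54618042) does not.
Psmb5, chr14:54617996-54618145, minus strand: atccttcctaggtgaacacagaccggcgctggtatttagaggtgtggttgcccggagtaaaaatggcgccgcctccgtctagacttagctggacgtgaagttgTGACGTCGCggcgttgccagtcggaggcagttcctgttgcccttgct
Psmb6, chr11:70525207-70525356, plus strand: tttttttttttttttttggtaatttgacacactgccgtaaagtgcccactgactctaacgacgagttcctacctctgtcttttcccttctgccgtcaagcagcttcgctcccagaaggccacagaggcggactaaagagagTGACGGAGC
Psmd2, chr16:20651502-20651651, plus strand: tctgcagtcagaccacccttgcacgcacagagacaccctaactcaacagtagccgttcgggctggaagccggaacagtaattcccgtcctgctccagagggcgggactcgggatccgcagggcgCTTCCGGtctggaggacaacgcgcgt
Psmc1, chr12:100110052-100110201, plus strand: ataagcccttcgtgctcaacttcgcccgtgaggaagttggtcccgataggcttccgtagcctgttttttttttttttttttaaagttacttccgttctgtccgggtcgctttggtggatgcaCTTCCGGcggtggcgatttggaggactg

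RefSeq promoter windows of 300 bases, 250 before and 50 after the start, were matched for 35 of the 42 members, as 38 windows, and motifs were searched on both strands. The antioxidant response element core was in 6 of the 38 (15.8%), those of Psmb5, Psmb6, Psmc6, Psmd9, Psmd12 and Psme4, against 12.4% of all 32851 windows. The ETS core was in 14 (36.8%) against 8.86% of all windows. GGGCGG, the SP1 box, was in 22 (57.9%) against 35.7%, CCAAT in 14 (36.8%) against 37.4%, and TTCNNNGAA, the gamma-activated site of STAT factors, in 1 (2.63%), that of Psmd2, against 8.3%. A match is a description of letters and not a binding site, and the sharing of some letters between motifs was not removed.

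The tables hold 6372 (CONV), 6983 (CONV AsiDNA) and 6267 (FLASH) cells, with summed adjusted counts of 23908890, 26417388 and 23383510 and medians of 3450 to 3678 a cell. Between 9 and 17 barcodes were shared by a pair of libraries. The adjusted count is the whole number under the deposited natural log, and a level is the adjusted count per 1000000 of a cell type's total (adjusted CPM). It is a share and not RNA per cell, and each molecule gives a tag at its 3′ end, so levels of genes were compared without length scaling. Cells were named by markers, with the name of the type that had the most markers above 0. These took 92.4% to 94.5% of each library, and 15 of 17 types had at least 30 cells in every library. Gm42418, a gene that overlaps ribosomal RNA, was above 0 in 93.0%, 93.9% and 5.15% of the cells of CONV, CONV AsiDNA and FLASH, so the FLASH library stood apart in a technical gene. A member listed at 0 may be an estimate that failed, since Vcp, a gene of all cells, is listed at 0 in neutrophils of CONV and FLASH.

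Over all cells the members summed to 3413 (CONV), 3580 (CONV AsiDNA) and 3511 (FLASH) adjusted CPM, which is 3501 ± 83.7 (SD, n = 3 libraries). The most abundant member was Psme1 at 284 ± 14.96 adjusted CPM, ahead of the 20S genes Psma7 at 231 ± 11.3, Psmb1 at 191 ± 5.63, Psma3 at 183 ± 9.70 and Psma2 at 150 ± 10.8. The catalytic members were at 84.2 ± 15.7 (Psmb5), 105 ± 3.71 (Psmb6) and 58.6 ± 3.35 (Psmb7). Of the other activators, Psme2 was at 126 ± 13.9, Psme4 at 49.2 ± 6.52 and Psme3 at 27.1 ± 2.82. The lowest 5 were Psmd5 at 20.9 ± 4.87, Psme2b at 14.7 ± 2.98, Psmc3ip at 9.02 ± 1.64, Psma8 at 1.23 ± 0.405 and Psmb11 at 0.139 ± 0.107. Psma8 reached at most 6.59 adjusted CPM in any type and library, and Psmb11 3.10, so the members of testis and thymus were near absent from these lung cells.

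The summed level differed by cell type far more than by library. Endothelial cells (EC) were at 5095 ± 428 adjusted CPM (SD, n = 3 libraries, as for all sums), with dendritic cells (DC) at 5067 ± 503 and ciliated cells at 4823 ± 336. Natural killer (NK) cells were at 4594 ± 282, smooth muscle cells and pericytes (SMC) at 4324 ± 239, type 1 alveolar cells (AT1) at 3880 ± 509, T cells at 3811 ± 216 and patrolling monocytes at 3564 ± 251. None of these neighbours in the order parted beyond the spread of their libraries, and the first place turned with the gate. EC had 103, 240 and 223 cells with 2 or more markers of a second type. Without such cells EC were at 4676, DC at 5097 and ciliated cells at 5612. Few ciliated cells were left for that value, as 279 of 297, 401 of 419 and 284 of 291 carried such markers. With at least 4 markers, DC were at 5506 and EC at 5101. Alveolar macrophages (AM) were at 3250 ± 126, B cells at 3208 ± 390, fibroblasts at 3046 ± 90.9, interstitial macrophages (IM) at 2926 ± 224 and type 2 alveolar cells (AT2) at 2551 ± 195. Club cells followed at 1398 ± 308 and neutrophils at 537 ± 168. Of the 14 steps in this order, only those from AT2 to club cells and from club cells to neutrophils had no overlap of libraries.

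**Figure D1:**
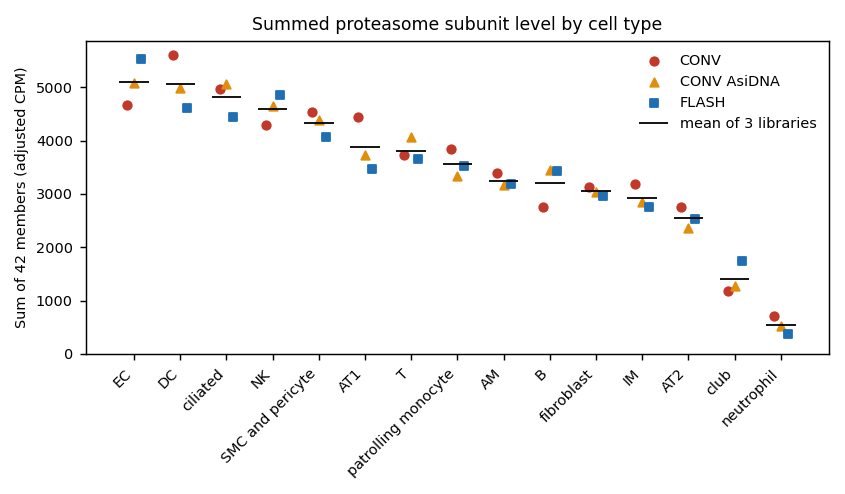
Summed level of the 42 members (adjusted CPM) by cell type, with a point for each library and a line for the mean of 3. Club cells and neutrophils lie below all other types in every library, and the CONV point of B cells lies at 2758 against 3443 and 3422.

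Most members followed the sum. Over the 45 points of 15 types and 3 libraries, the correlation of a member with the sum of the rest was highest for Psmc3 and Psmb4 (r = 0.94 each), which encode an ATPase and a beta subunit. It was 0.92 for Psma4 and Psmc6 and 0.86 for Psmb5. Among the activators r was 0.53 for Psme1 and Psme3, 0.57 for Psme2 and 0.21 for Psme4, and among the assembly chaperones it was 0.48 for Psmd5, 0.71 for Psmd9 and 0.24 for Psmd10. It was 0.25 for Psmc3ip and -0.03 for Psme2b. Low values were not limited to these groups, since the alpha gene Psma1 was at 0.41 and the 19S gene Psmd13 at 0.57. These values describe points that share libraries, depth and totals.

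**Figure D2:**
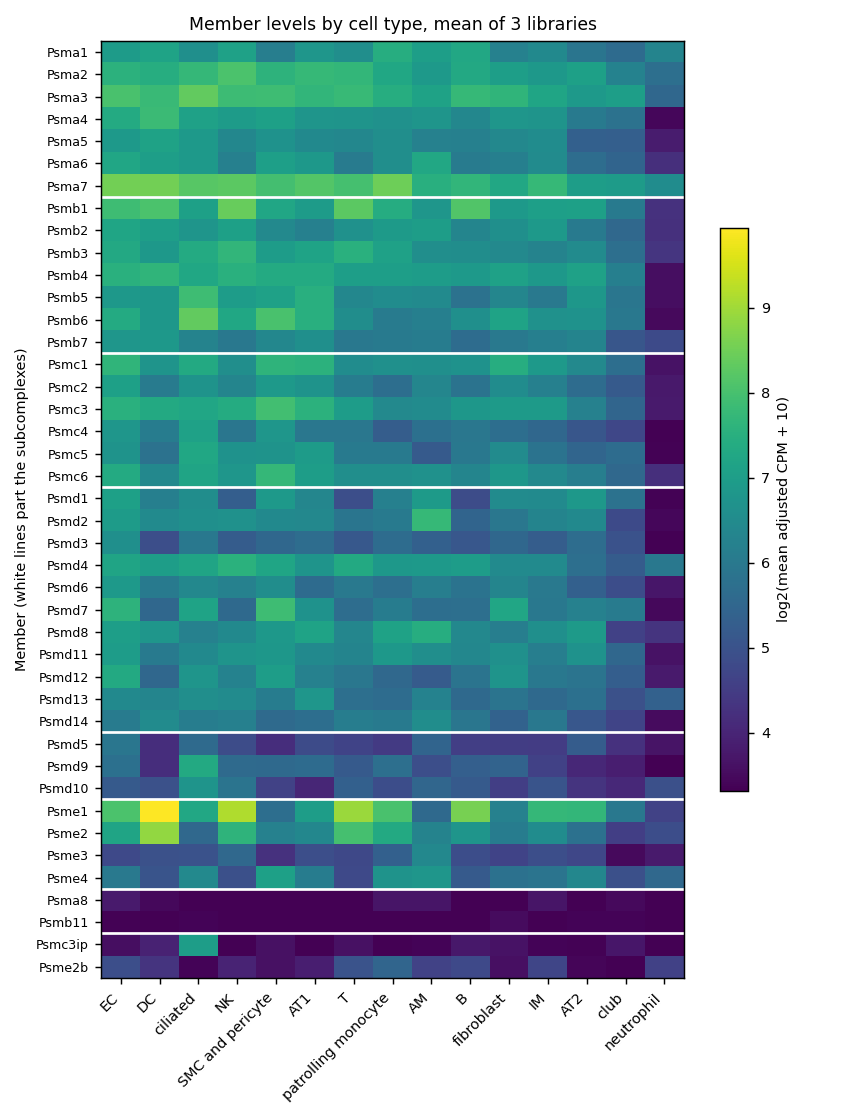
Mean level of each member over 3 libraries, as log2(adjusted CPM + 10), with cell types in columns ordered by their sum and subcomplexes parted by white lines. The dark column of neutrophils, the bright Psme1 and Psme2 of DC and the single bright cell of Psmc3ip in ciliated cells stand out.

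A member was then called highest or lowest in a type where all 3 libraries of that type lay beyond every library of every other type, among 37 members and 7088 genes with a mean of at least 20 adjusted CPM. In neutrophils, 22 of the 37 members (59.5%) were lowest by this rule, against 9.54% of all genes tested. Of these 22, all but Psma2 and Psma3 had a mean below 20 in neutrophils and were tested only through the other types. With the minimum set on neutrophils 2 of 8 members were lowest, against 0.748% of 3075 genes, so the 22 are given as a description. They included Psmb5, listed at 0, 5.30 and 0 adjusted CPM in CONV, CONV AsiDNA and FLASH, and Psmb6, at 2.67, 1.06 and 0. Psmc4 and Psmd3, of the 19S particle, were listed at 0 in all 3 libraries. Members above 30 in every library of neutrophils were the alpha genes Psma7 (156, 50.9 and 44.4), Psma1 (94.8, 59.4 and 53.1) and Psma2 (52.1, 39.2 and 40.1), together with Psmd4 (76.1, 37.1 and 44.4), a ubiquitin receptor, and Psme4 (33.4, 46.7 and 31.4), which was higher there than in T cells. Neutrophils had medians of 2777 to 2936 adjusted counts and 791 to 855 genes a cell, against 2834 to 3048 counts and 922 to 1074 genes in B cells. B cells summed to 3208 adjusted CPM. The parts of depth and of the authors' adjustment in the neutrophil sum and zeros were not tested.

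Club cells, secretory cells of the airway, had the second lowest sum, and Psmd4 was the member lowest in them (30.7, 17.0 and 35.9 adjusted CPM), 1 of 37 against 8.18% of all genes. Only 565 to 649 genes a cell were above 0 in club cells, at medians of 5261 to 5498 adjusted counts. In FLASH the sum was 1749, against 1174 in CONV and 1271 in CONV AsiDNA. Club cells carried 2 or more markers of another type in 74 of 93, 127 of 169 and 70 of 109 cells, and without such cells the mean sum was 1401, against 1398 with them.

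Dendritic cells, which present antigen to T cells, stood apart by their activators. Psme1 was at 1134, 836 and 942 adjusted CPM in CONV, CONV AsiDNA and FLASH, and the next value, in NK cells, was 599. Psme2 was at 507, 487 and 381, and the next value, in T cells, was 258. With Psma4 (199, 224 and 229), an alpha subunit, 3 members (8.11%) were highest in DC, against 1.92% of all genes. Activators made up 29.1% ± 1.38 of the members' sum in DC, 20.1% ± 1.23 in T cells, 17.6% ± 0.943 in NK cells and 16.3% ± 0.818 in B cells. In fibroblasts they made up 6.02% ± 0.456 and in ciliated cells 5.85% ± 0.567. Of the immunoproteasome genes outside the rule, Psmb8 was at 996, 856 and 814 in DC and at 0, 5.79 and 3.14 in ciliated cells, and Psmb9 was at 484, 422 and 444 against 5.17, 3.69 and 3.14. Psmb10 went another way, at 109, 94.8 and 101 in DC, below NK cells at 165, 169 and 171 and EC at 152, 161 and 186.

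Of the nuclear activators, Psme3 was highest in AM, at 66.2, 79.2 and 80.5 adjusted CPM, with the next value at 43.5 in NK cells. It reached the mean of 20 only through AM, with a mean of 17.9 over the other types. Psme4 had its highest mean in SMC, at 229, 61.8 and 86.8, and was at 152, 77.7 and 58.1 in patrolling monocytes. It was at 108, 99.7 and 93.1 in AM and at 12.5, 23.6 and 17.1 in T cells, where Psme1 was at 504, 459 and 485. In AM, Psme1 was at 44.6, 33.3 and 37.1 and Psme2 at 76.8, 59.0 and 67.4.

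Alveolar macrophages, the resident phagocytes of the air space, were also highest for Psmd2, which with Psmd1 forms the scaffold of the 19S base, at 224, 190 and 206 adjusted CPM. The next value was 130, in EC. With Psme3 this made 2 members (5.41%), near the 6.42% of all genes highest in AM. With the minimum set on the other types it was 1 of 36 members, without Psme3, against 4.97% of 7025 genes.

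Ciliated cells, which bear motile cilia, were highest for 4 members (10.8%), against 8.27% of all genes, and the values are given as a description. With the minimum set on the other types they were 4 of 37, against 4.33% of 6771 genes. Psmd9, a chaperone of 19S assembly, was at 179, 158 and 124 adjusted CPM with the next value at 72.5, and Psmd10, another chaperone, was at 103, 114 and 76.9 with the next at 65.2. Psmb5 was at 209, 259 and 210 with the next value at 187, in AT1. Psma3 was at 334, 332 and 290 with the next at 272, in EC. The catalytic Psmb6, at 320, 342 and 278, overlapped with SMC, whose highest library was at 295. Psmb7 did not share this height, at 69.5, 78.0 and 54.1.

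Psmc3ip was the member most restricted to a type. It was at 111, 128 and 113 adjusted CPM in ciliated cells and at most 9.96 in any library of any other type, and it was below the mean needed for the call. Ciliated cells carried 2 or more markers of a second type in 279 of 297, 401 of 419 and 284 of 291 cells, mostly of club cells (273, 395 and 277 cells). Club cells themselves had Psmc3ip at 0, 0 and 9.96.

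The remaining calls were of single subunits. Endothelial cells were highest for Psmd3 (85.2, 89.3 and 89.2 adjusted CPM, with the next value at 65.8), 1 of 37 members against 4.71% of all genes. NK cells were highest for Psmb1 (324, 324 and 337, with the next at 314), 1 of 37 against 2.12%. SMC were highest for the ATPase genes Psmc3 and Psmc6 and for Psmd7, 3 members (8.11%) against 2.69%, from 42, 35 and 31 cells of which 37, 31 and 26 carried 2 or more markers of a second type.

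**Figure D3:**
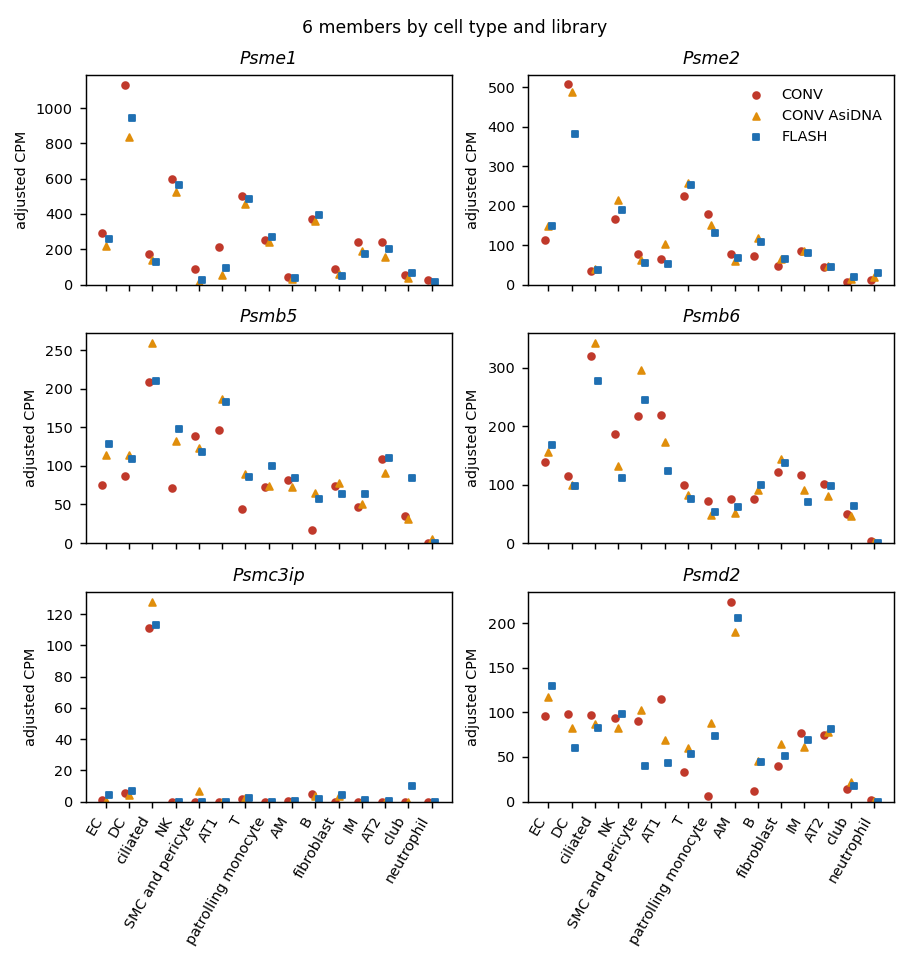
Level of 6 members (adjusted CPM, axes from 0) in 15 cell types, with a point for each library. Psme1 and Psme2 peak in DC, Psmb5, Psmb6 and Psmc3ip in ciliated cells and Psmd2 in AM, and the CONV points of Psmb5 and Psmd2 in B cells lie below the other libraries.

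Only 6 members reached 20 adjusted CPM as a mean in every type, which were Psma1, Psma2, Psma3, Psma7, Psmd4 and Psmd13. Among these the range over types was 2.84 on the log2(adjusted CPM + 10) scale for Psma3, from 36.0 in neutrophils to 319 in ciliated cells. It was 2.33 for Psma2, 2.31 for Psmd4, 1.98 for Psma7 and 1.83 for Psmd13. Psme1 had the widest range of any member, 5.31, from 14.8 in neutrophils to 971 in DC.

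In T cells, division was another axis along which most members moved together. T cells with at least 3 of 6 division markers, such as Mki67 and Top2a, were set beside the other T cells of the same library. The members summed to 6986, 7142 and 7274 adjusted CPM in the 29, 26 and 33 dividing T cells of CONV, CONV AsiDNA and FLASH, and to 3626, 3950 and 3520 in the 1359, 954 and 1155 others. The dividing cells were higher in every library, with no overlap. Of 37 members tested, 30 (81.1%) had all 3 dividing values above all 3 others, against 29.4% of all 5179 genes, and none lay below in the same way. Psmd1, Psme3 and Psmc3ip are among the 30 and reached the mean of 20 only through the dividing cells. With the minimum set on the other T cells alone, which leaves these out and takes in Psme2b, 27 of 35 members (77.1%) were higher, against 21.3% of 4859 genes, and Psme2b was lower, at 7.92, 17.5 and 6.80 adjusted CPM against 20.6, 21.7 and 25.1. The mean log2 ratio had a median of 1.06 over the members and 0.06 over all genes. Without T cells that carried 2 or more markers of a second type, 29 of 36 members (80.6%) were higher, against 29.4% of all genes.

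Genes of the 20S core and 19S particle were among the most different. Psmd13 went from 27.7, 45.2 and 44.2 adjusted CPM in other T cells to 143, 184 and 170 in dividing ones, a log2 ratio of 1.85 ± 0.15 (SD, n = 3 libraries). Psmc1, whose promoter is shown above, went from 69.9, 88.5 and 70.4 to 372, 254 and 265 (1.82 ± 0.42). Psma4 went from 86.2, 103 and 77.0 to 309, 359 and 333 (1.80 ± 0.15) and Psmb5 from 40.3, 84.3 and 78.0 to 198, 245 and 279 (1.73 ± 0.31). The groups of dividing and other cells did not overlap for any of these 4.

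The interferon-induced activators showed no such gap. Psme1 was at 388, 473 and 463 adjusted CPM in dividing T cells and 507, 459 and 485 in others, and Psme2 at 206, 350 and 347 against 224, 255 and 250. Their groups overlapped, with log2 ratios of -0.13 ± 0.22 and 0.26 ± 0.33. The nuclear activator Psme3 was higher, at 23.8, 35.01 and 40.8 against 10.1, 19.5 and 19.8. Psmc3ip was at 39.6, 17.5 and 61.2 in dividing T cells and at 0.688, 1.83 and 0.254 in the others, on 29, 26 and 33 dividing cells. Median adjusted counts a cell were also higher in dividing T cells, at 4204, 4375 and 4237 against 3288, 3555 and 3501. The part of depth in these ratios was not tested.

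**Figure D4:**
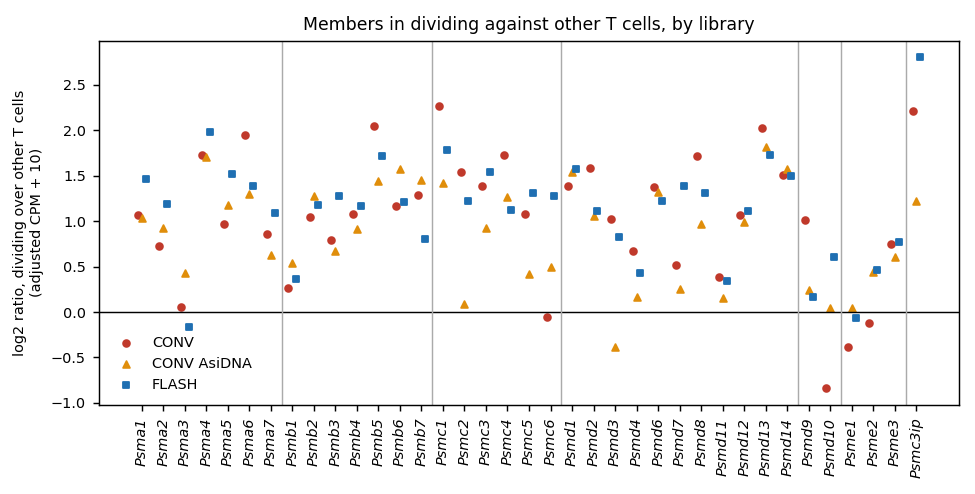
Log2 ratio of dividing over other T cells (adjusted CPM + 10) for the 37 members tested, with a point for each library and subcomplexes parted by grey lines. Most members lie above 0 in all libraries, and Psme1 lies at -0.38, 0.04 and -0.07.

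In DC and AM the gap was smaller. Dividing DC summed to 5839, 5449 and 4901 adjusted CPM (16, 40 and 30 cells) against 5538, 4869 and 4541, and dividing AM to 4756, 3629 and 4091 (16, 20 and 14 cells) against 3373, 3154 and 3157. In each library the dividing cells had the higher sum, but the values of DC overlapped between libraries. Single members were looked at only in part. In AM, Psmd8 was lower in the dividing cells of every library, at 180.6, 31.28 and 107.7 against 237.6, 122.5 and 134.9. Psmd1, Psmd2, Psmd13, Psme1 and Psme3 were higher there in every library. Psma6, Psmb5 and Psmb6 differed in direction between libraries.

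The conditions were compared within each cell type by the log2 ratio of adjusted CPM plus 10, and a gene was counted where CONV differed by at least 2-fold, in the same direction, from both other libraries. In 5 of the 6 main types no member was counted in either direction. In AM these were 0 of 37 members, against 1.48% of all genes higher and 2.91% lower in CONV. In T cells they were 0 of 36 (0.571% and 0.469%), in AT2 0 of 35 (2.33% and 1.58%), in EC 0 of 38 (2.64% in each direction) and in fibroblasts 0 of 35 (2.43% and 2.12%). A count of 0 is near the background at these rates.

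B cells were the exception, with 2 of 35 members lower in CONV, against 1.93% of all genes lower, and 0 higher, against 0.269%. Both reached the mean of 20 only through the other libraries, and with the minimum set on CONV the count was 0 of 32 members, against 0.715% of 4196 genes, so the values below are given as a description. Psmb5, the chymotrypsin-like subunit, was at 16.8 adjusted CPM with CONV against 64.8 (CONV AsiDNA) and 56.5 (FLASH), which gave log2 ratios of -1.48 and -1.31. Psmd2 was at 11.5, 45.7 and 44.7, with ratios of -1.37 and -1.34. For both genes the CONV library lay apart and the other libraries lay close together. Psmd1, the other scaffold of the 19S base, and Psme3, PA28 gamma, were at 2.36, 22.6 and 32.8 and at 7.07, 25.8 and 26.3, with means below the 20 needed. Psmd13 was at 18.3, 55.8 and 40.99 and Psmd8 at 47.9, 86.8 and 89.9, short of 2-fold against at least 1 library. Psme1, at 369, 361 and 396, and Psma7, at 188, 198 and 200, were close in all libraries.

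The share of B cells above 0 describes the same values of these 2 genes, chosen for their low level in CONV, and is no further evidence. For Psmb5 it was 4.31% of 1323 cells in CONV (exact 95% interval 3.28 to 5.55), 16.8% of 1593 in CONV AsiDNA (14.96 to 18.7) and 14.9% of 1149 in FLASH (12.9 to 17.1). For Psmd2 it was 3.02% (2.17 to 4.09), 12.2% (10.7 to 13.95) and 11.7% (9.94 to 13.8). With every cell thinned to 1000 adjusted counts, Psmb5 was above 0 in 1.74%, 6.47% and 5.74%, and Psmd2 in 1.28%, 5.09% and 4.53%. In neutrophils, of similar median adjusted counts, Psmb5 was above 0 in 0 of 265, 1 of 309 and 0 of 303 cells, where zeros may be failed estimates as above. These exact Clopper-Pearson intervals speak for the cells sampled from a mouse and leave out how mice differ.

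The same values can be given by subset of B cells, again as a description of these 2 chosen genes. In cells above 0 for Ighd, a marker of naive B cells, Psmb5 was at 14.6, 62.2 and 52.4 adjusted CPM, and in the others at 24.2, 75.3 and 71.4. Split by Iglc2, a light chain gene, it was at 17.2, 66.4 and 54.5 in cells above 0 and at 16.3, 56.6 and 64.5 in the rest. Psmd2 was between 10.4 and 11.9 in all 4 subsets of CONV and between 36.4 and 52.1 in those of the other libraries. B cells had medians of 922, 1056 and 1074 genes a cell, and 42, 3 and 11 of them carried 2 or more markers of a second type. Without these cells the count was also 2.

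The members as a whole were lower in CONV B cells, with a sum of 2758 adjusted CPM against 3443 and 3422. The log2 ratio was below 0 for 29 of 35 members against CONV AsiDNA and for 32 of 35 against FLASH, with medians of -0.31 and -0.29. The median of all 4460 genes was itself -0.14 in both, with 31.8% and 31.6% of genes above 0, so relative to the median gene the members were lower by less, at -0.17 and -0.15. CONV AsiDNA and FLASH differed little, with a median of -0.02. These comparisons share the CONV library.

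**Figure D5:**
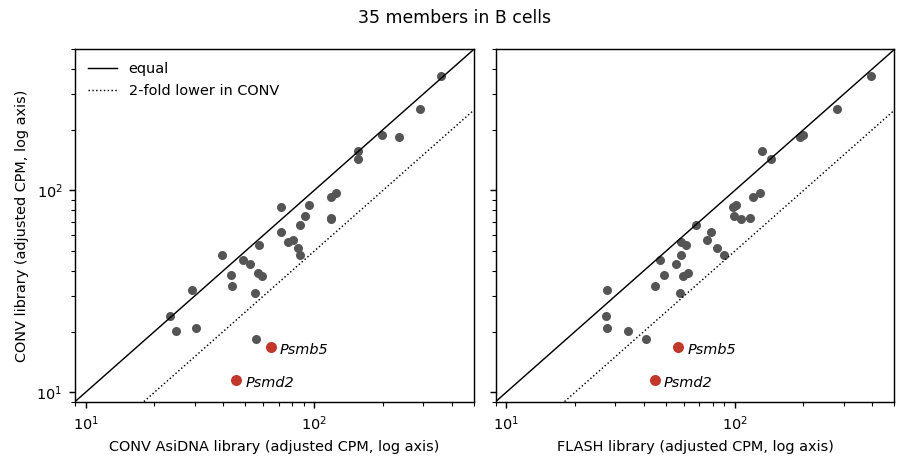
Level of the 35 members tested in B cells of CONV against CONV AsiDNA (left) and FLASH (right), on log axes, with lines for equal levels and for 2-fold lower in CONV. Most members lie just under the line of equality, and Psmb5 and Psmd2 lie below the 2-fold line in both panels.

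In T cells the same pair of genes lay lower in CONV without reaching 2-fold. Psmb5 was at 44.8, 89.7 and 85.2 adjusted CPM and above 0 in 12.1%, 24.4% and 22.8% of cells, and Psmd2 was at 32.7, 60.2 and 53.9. In EC, Psmb5 was at 75.7, 114 and 128. In AM it was at 81.1, 72.2 and 84.7, so the lower level in CONV was not common to all types. The difference between types was not tested.

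In the other main types the member medians lay between -0.23 and 0.17. In T cells they were -0.15 (CONV over CONV AsiDNA), 0.05 (CONV over FLASH) and 0.14 (CONV AsiDNA over FLASH). In the last, 31 of 36 members and 64.6% of all genes were above 0, and the median of all genes was 0.09. In EC they were -0.12, -0.23 and -0.11. For CONV over FLASH 33 of 38 members were below 0, while all genes had a median of -0.04 and 46.3% above 0. In fibroblasts they were -0.01, -0.04 and -0.02. In AT2 they were 0.17, 0.06 and -0.05 beside 0.05, 0.17 and 0.10 for all genes, and the sign for CONV over FLASH turned, to -0.11, when the median gene was set equal. In AM they were 0.08, 0.07 and -0.01, where the median gene was at -0.20, -0.16 and 0.03. With the median gene set equal, the first 2 became 0.28 and 0.23, a larger shift than that of B cells on the same scale.

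Psmd8, a 19S lid subunit, was the member of AM with the clearest gap that did not reach 2-fold, and it was singled out after its values were seen. It was at 237 adjusted CPM with CONV against 120 (CONV AsiDNA) and 134 (FLASH), with log2 ratios of 0.93 and 0.78. After thinning it was above 0 in 21.9% of CONV cells, 12.3% of CONV AsiDNA cells and 10.8% of FLASH cells. AM above 0 for Gpnmb, a glycoprotein of lipid-laden macrophages, had more of it in every library (258 against 187, 169 against 89.4 and 160 against 109). Of the AM, 690 of 1001, 248 of 665 and 231 of 481 were above 0 for Gpnmb, and within each subset CONV was also the highest. The shares and the subset values of Psmd8 describe the same values of a gene chosen for its gap, and are no further evidence.

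Of the other 9 types, 4 had no member counted in either direction. These were IM (0 of 35 members, against 1.36% of all genes higher and 0.568% lower), DC (0 of 35, against 0.731% and 3.45%), ciliated cells (0 of 39, against 0.592% and 0.501%) and club cells (0 of 28, against 2.98% and 2.05%). NK cells, with 63 cells in CONV, had 5 of 37 members lower in CONV (Psmd1, Psmd8, Psma4, Psme4 and Psmd10), against 8.31% of all genes, and none higher (1.82%). Psmd1, Psmd8 and Psme4 were tested only through the other libraries, and with the minimum set on CONV 2 of 35 were lower, against 1.96% of 4837 genes. The greatest gap was that of Psmd8, at 5.50, 129 and 101 adjusted CPM. Patrolling monocytes, with 44 cells in CONV, had Psmd7 and Psmc5 higher (3.48% of all genes) and Psmd2 lower (5.65%), the last at 6.59, 88.5 and 73.4 and tested only through the other libraries. SMC had Psmc2, Psme4 and Psme1 higher (7.29%) and Psmd6 lower (3.43%), of 35 tested. Psme1, at 90.5, 13.7 and 23.7, was tested only through CONV, and with the minimum set on the other libraries 2 of 34 were higher, against 2.58% of 5385 genes. AT1 had Psme1 higher, at 211, 54.1 and 91.2 (4.67%), and none lower (5.08%). Neutrophils had Psma7 higher among 8 members tested (1.72%) and none lower (3.51%). Psma7 was above 0 in 31.7% (26.1 to 37.7), 11.7% (8.30 to 15.8) and 9.24% (6.23 to 13.1) of their 265, 309 and 303 cells. These shares describe the same values of a gene chosen for its higher level in CONV, and are no further evidence. Their exact intervals, in brackets, speak for the cells sampled from a mouse and leave out how mice differ.

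The other genes of the pathway came from a list of 28, of which 27 are in the tables. They comprise the immunoproteasome genes, assembly factors, ubiquitin genes, the transcription factors Nfe2l1 and Nfe2l2 and shuttle proteins. By the same rule, none of the 20 tested in AM, 22 in T cells or 18 in AT2 differed in CONV, where the shares of all genes are those given above. In B cells 1 of 21 was higher, against 0.269% of all genes, and none lower, against 1.93%. It was Nfe2l2, a factor that drives antioxidant and proteasome genes, at 71.0, 15.9 and 0 adjusted CPM. It was tested only through CONV, since the other libraries had a mean of 7.97.

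Levels of some pathway genes across cell types are given as examples, and whether the list followed the members was not tested. Pomp, the maturation factor of the 20S core, was at 538, 477 and 501 adjusted CPM in DC and at 5.34, 0 and 1.08 in neutrophils. Vcp, the segregase that feeds substrates to the proteasome, was at 439, 420 and 424 in AM, above every library of other types. Sem1, a small 19S subunit that the naming rule does not reach, was at 773, 820 and 738 in neutrophils, so it parted from the Psmd genes there. Nfe2l2 was also at 733, 753 and 657 in neutrophils.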

How the data were processed

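Single-cell libraries of 3 mouse lungs (10x Genomics 3′ chemistry, 1 mouse each) were analysed. Per the submitters' processing notes, Cell Ranger 6.0.0 and mm10 were used. Neither the cell filters nor the adjustment of values is stated in the sources used here. Deposited by the authors were natural log values, ln(1 + a whole number), for each gene and cell, and each was converted back to the whole number (adjusted count). As these are not raw counts, no count model was used. Another 4 tables, with 12 sample columns that match no sample here, were not used, and 3 of them hold the authors' own comparisons.

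A cell took the type with the most markers above 0 (6 per type, 8 for DC), if at least 3 and no tie. Counts were summed per type and library and scaled to adjusted CPM. Ratios used a prior of 10, which understates the change of low genes, and genes with a mean of at least 20. No doublet caller was run, and cells with 2 markers of a second type were left out as an alternative. Named were the catalytic, activator and tissue-restricted members, members counted in a main type (AM, B, T, EC, AT2, fibroblast), the 5 highest and 5 lowest, and those with the largest range among members above 20 in every type. Genes that lead a cell type or the dividing cells, and pathway genes given as examples, were named after their values were seen. The members and lists were chosen with earlier results of these data known. Positions came from GENCODE for GRCm38 and promoters from RefSeq (GRCm38.p6). The call rule was tested on simulated data. Python 3.11.15, numpy 2.4.6, scipy 1.17.1, pandas 2.3.3 and matplotlib 3.10.9 were used. Alternatives changed the prior, the minimum level, the weight of cells, the scaling, the number of markers, cells of mixed markers and dividing cells. Totals without Gm42418, AY036118 and mitochondrial genes, subsets of B cells and AM, thinning, T cells without mixed markers and a minimum level set only on the samples where a gene is low were added after seeing the data. The values of 1 gene of the pathway list are not reported here.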

Additional observations from a re-analysis of the deposited data

How the results depend on the processing

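Each result has 1 mouse per condition, so no replicate could be left out. No paired analysis was possible because a single mouse stands for each condition and the labels number no replicates. Of the alternatives, at least 4 markers, equal weight of cells and the removal of dividing cells moved no median or sum beyond its spread. Equal weight of cells and a prior of 1 each gave 3 members lower in CONV B cells in place of 2. Setting the median gene ratio to 1 moved the median log2 ratio of the members to 0.28 (CONV over CONV AsiDNA) and 0.23 (CONV over FLASH) in AM, to -0.17 and -0.15 in B cells, and to -0.11 (CONV over FLASH) and -0.16 (CONV AsiDNA over FLASH) in AT2. In B cells, the 2 members lower in CONV became 4 with no minimum level, with Psmd1 and Psme3 added, and 0 with a minimum of 50, where Psmb5 and Psmd2 were no longer tested. They were also 0 with the minimum of 20 set on CONV alone, an alternative chosen after seeing the data. They also became 4 with totals that leave out Gm42418, AY036118 and mitochondrial genes. In EC, a prior of 1 gave 1 lower member, Psme2b, in place of 0. Only the count with the minimum set on CONV has a share of all genes beside it (0.715%). The other alternative counts have none, so they cannot be read against the background. The sum of the members changed to 3396 adjusted CPM in AM without those technical genes. Without cells with 2 markers of a second type it changed to 2910 in fibroblasts and to 5612 in ciliated cells, few of which were left. The causes were not tested. Levels near 1 adjusted count in a small type, such as those of NK cells in CONV, are limited by the number of cells.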
